A study of Mus musculus with 59 samples.

Results

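Hspa5, Dnajc3, Manf, Pdia6 and Calr encode chaperones of the endoplasmic reticulum (ER), and their transcripts were followed through the day in the medial prefrontal cortex of the mouse. The 5 genes were chosen by name, with earlier results of these data known. All were present among the 4484 genes of the deposited table and passed the filter on low values, which kept 4273 genes. The study sampled homogenates of this cortex from adult wild-type C57BL/6J males and females every 4 h over 24 h, at zeitgeber times ZT2, ZT6, ZT10, ZT14, ZT18 and ZT22. Zeitgeber time counts hours from lights on by convention, so that ZT12 to ZT24 is the night, when mice are active; the light schedule itself is not given in the sources used here. Each of the 12 groups of one time and one sex held 5 libraries, except ZT10 females with 4, which gave 59 libraries, 30 male and 29 female. No mutation, agent or treatment is named for any group, and the title of the series also names human cortex, which is not analysed here.

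Proteins that enter the ER are folded there before they go on to membranes, synapses or the outside of the cell. BiP, the Hsp70 of the ER, holds unfolded chains, isomerases form and rearrange disulphide bonds, and lectin chaperones hold glycoproteins. When unfolded chains accumulate, the unfolded protein response raises the transcription of many of these helpers, in part through ATF6 and the CCAAT-binding factor NF-Y at a short promoter sequence, the ER stress response element (ERSE). Neurons secrete peptides and carry large membrane areas, and so depend on this machinery.

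The upstream sequences are shown because that element was found in each of the 4 members that have an entry in the RefSeq promoter table (GRCm38.p6), which were Hspa5, Dnajc3, Pdia6 and Calr; Manf has none there. Each line gives the 250 bases before the RefSeq start, 5′ to 3′ on the strand of the gene. They are chr2:34771840-34772089 on the plus strand for Hspa5, chr14:118937682-118937931 on the plus strand for Dnajc3, chr12:17266339-17266588 on the plus strand for Pdia6 and chr8:84846932-84847181 on the minus strand for Calr. Capitals mark the fixed letters of the element, CCAAT and CCACG with 9 bases of any kind between them, on either strand, the letters TGACGTG in Hspa5 and the letters CACGTG in Calr.
Hspa5: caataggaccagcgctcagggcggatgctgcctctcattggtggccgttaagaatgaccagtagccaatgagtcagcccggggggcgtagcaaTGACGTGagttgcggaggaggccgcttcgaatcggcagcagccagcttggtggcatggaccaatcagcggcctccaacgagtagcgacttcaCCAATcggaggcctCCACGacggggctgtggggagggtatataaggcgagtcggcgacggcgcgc
Dnajc3: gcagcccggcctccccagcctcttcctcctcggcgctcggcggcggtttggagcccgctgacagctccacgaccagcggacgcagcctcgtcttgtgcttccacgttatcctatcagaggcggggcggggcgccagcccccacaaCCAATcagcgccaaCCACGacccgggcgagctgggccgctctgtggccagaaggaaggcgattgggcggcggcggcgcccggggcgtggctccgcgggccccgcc
Pdia6: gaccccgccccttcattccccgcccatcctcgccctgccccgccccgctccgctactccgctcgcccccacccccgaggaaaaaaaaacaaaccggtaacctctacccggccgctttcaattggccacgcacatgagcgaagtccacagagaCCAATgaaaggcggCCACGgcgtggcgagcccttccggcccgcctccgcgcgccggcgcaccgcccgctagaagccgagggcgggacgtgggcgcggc
Calr: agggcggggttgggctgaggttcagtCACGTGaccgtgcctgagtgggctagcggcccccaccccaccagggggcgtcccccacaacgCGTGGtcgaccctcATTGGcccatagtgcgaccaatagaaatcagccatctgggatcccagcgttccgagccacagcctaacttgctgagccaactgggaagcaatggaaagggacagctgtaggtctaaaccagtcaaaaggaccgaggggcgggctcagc

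The element began 65 bases before the start of Hspa5, at chr2:34772025-34772043. In Dnajc3 it lay at chr14:118937827-118937845, and in Pdia6 98 bases before it, at chr12:17266491-17266509. Calr carried it on the opposite strand, 162 bases before the start, at chr8:84847075-84847093. All 4 sites thus lay within the region just upstream of the start that RefSeq gives; the gene model of GENCODE M21 for Hspa5 begins further upstream, at 34771970, so that its site falls inside that model.

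With the 50 bases after the start included, the element occurred in 39 of 32851 windows of the table, 0.119% of them. Of the 3205 tested genes with a window, 7 held it (0.218%), and 4 of these 7 were the members. The other three were Xlr3b, Spats2l and Pan2, named because they are the whole remainder, and none of them passed the test for a 24 h rhythm. A related motif, ATTGG and CCACG with 1 base between them, found in 0.0365% of windows, was in no member. TGACGTG, the core of a second site of the response, was among the members in Hspa5 only, against 2.01% of windows and 3.81% of the tested genes with a window. CACGTG, the E-box that clock proteins bind, was among them in Calr only, against 7.15% of windows and 11.7% of those tested genes. Both strands were searched for each motif, the letters CCAAT are part of the element, and the motifs in capitals do not overlap one another. A match describes letters and not a bound site.

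Each value is a log2 of the scaled read count plus 1, as deposited, with the SD over libraries. The libraries held 6317420 to 13325019 reads (median 9015221) over the genes of the table, of which 6 abundant noncoding genes took 61.4% to 91.2%; the remaining genes shared 1009789 to 4253935 reads. The titles carry serial numbers, and the 11 libraries numbered 49 to 60 stood apart: they had a lower noncoding share (median 70.9%, against 79.5%) and deviated together from their group means (mean pairwise correlation of 0.41). Results that rest on them are given with and without them. The tissue was checked by markers: the GABAergic genes Gad1, Gad2, Slc32a1, Vip, Calb2 and Npy summed to at least 4022 scaled counts in every library, and the 5 striatal and 3 choroid plexus markers searched are not among the genes of the table and could not be checked. The labels do not state in words that each library came from a separate mouse. The titles also give animal numbers, which repeat within each of the 12 groups and leave 2 to 4 different numbers per group, so libraries of a group may share an animal and p-values over libraries may be too small. Where averaging the libraries of one number in a group, which left 37 samples, ended a call, its value is given beside the result (added after seeing the data).

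All members were abundant, and they kept one order of level. On the scale of scaled counts per kilobase of annotated exon, Calr had a median of 3351 (1629 to 5185 over the 59 libraries) and Hspa5 of 1509 (934 to 2410). Pdia6 followed with 798 (560 to 1005), then Manf with 316 (245 to 475) and Dnajc3 with 237 (182 to 317). Every neighbouring pair kept this order in 59 of 59 libraries, with mean log2 differences of 1.07 ± 0.37 for Calr over Hspa5, 0.93 ± 0.18 for Hspa5 over Pdia6, 1.29 ± 0.20 for Pdia6 over Manf and 0.45 ± 0.22 for Manf over Dnajc3 (SD, n = 59). Among 3934 protein-coding genes of the table, 98.8% lay below Calr and 69.1% below Dnajc3. Exon lengths are the union over all annotated transcripts of GENCODE M21 (GRCm38), and the model of Manf is long, from 106838312 to 106891979 on chromosome 9, with 9.25% of its exonic bases shared with Dcaf1, Rbm15b and 4930524O07Rik, so its level per kilobase is the least certain.

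Over the day, 4 of the 5 transcripts had higher means at ZT18 and ZT22 than at ZT6, ZT10 and ZT14. The lowest mean was at ZT10 for Hspa5, Pdia6 and Manf and at ZT6 for Dnajc3. Hspa5, Pdia6, Manf and Dnajc3 passed the test for a 24 h rhythm (limma, Benjamini-Hochberg over 4273 genes), beside 1.90% of all tested genes, with fitted peaks between ZT20.2 and ZT22.4. Their peak-to-trough folds ran from 1.25 to 1.5. Calr, the fifth member and the most abundant, did not pass, and its fitted peak lay after lights on, at ZT1.18 ± 1.18 (SE). Genes called with a peak between ZT12 and ZT24 made up 1.40% of those tested.

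**Figure D1:**
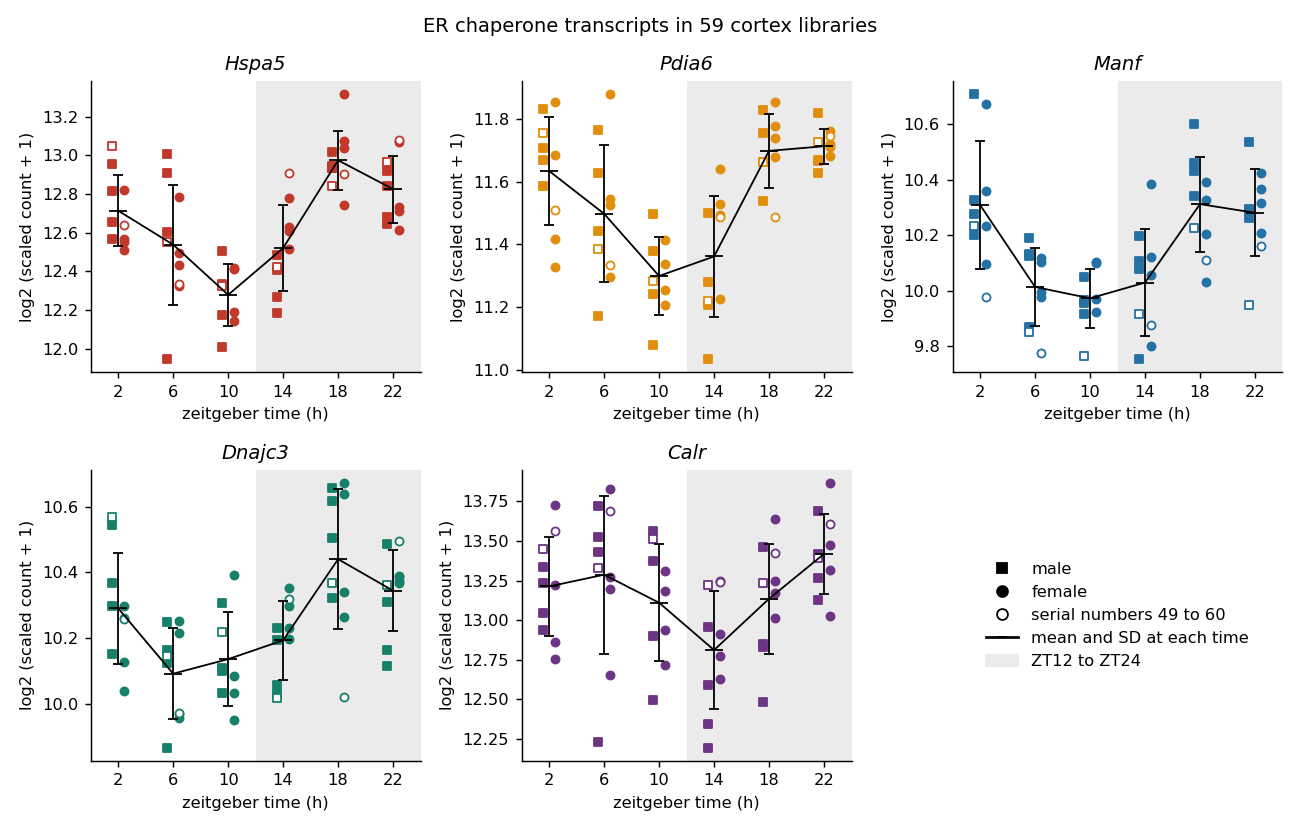
Log2 of the scaled count plus 1 for each transcript in the 59 libraries, by zeitgeber time in hours. Squares are males, circles females, open symbols serial numbers 49 to 60, and black bars the mean and SD at each time (n = 10, or 9 at ZT10); Hspa5 at ZT10 reaches at most 12.50, below every ZT18 and ZT22 library.

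Hspa5 (ENSMUSG00000026864, chromosome 2, 34771970 to 34777547, plus strand) encodes BiP, the central Hsp70 chaperone and a sensor-binding regulator of the unfolded protein response. At ZT2 its lowest, median and highest libraries were at 12.51, 12.65 and 13.05, at ZT6 at 11.95, 12.52 and 13.004, and at ZT10 at 12.01, 12.32 and 12.50. At ZT14 they stood at 12.19, 12.50 and 12.91, at ZT18 at 12.74, 12.94 and 13.32, and at ZT22 at 12.62, 12.79 and 13.08. All 9 libraries of ZT10 lay below all 10 of ZT18, all 10 of ZT22 and all 10 of ZT2. The gap to ZT2 was narrow, from 12.50 to 12.51. These pairs of times were picked for the gap. How many of all genes separate times in this way was not counted, here or for the members below. The means were 12.28 ± 0.16 at ZT10 (n = 9) and 12.97 ± 0.15 at ZT18 (SD, n = 10), a rise of 0.69 ± 0.10 (SE) or 1.62-fold (limma, adjusted p = 4.64e-06), the second-smallest p of the 4273 genes. The fitted amplitude, from mean to peak, was 0.29 ± 0.04 with a peak at ZT21.08 ± 0.54 (SE, adjusted p = 9.88e-06).

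Dnajc3 (ENSMUSG00000022136, chromosome 14, 118937976 to 118981697, plus strand) encodes P58IPK, a J-domain co-chaperone that hands unfolded chains to BiP. Its lowest, median and highest libraries were 9.87, 10.14 and 10.25 at ZT6, and 10.02, 10.44 and 10.67 at ZT18. These ranges overlapped through a single low ZT18 library, from a female, at 10.02. The means rose from 10.09 ± 0.14 at ZT6 to 10.44 ± 0.21 at ZT18 (SD, n = 10), by 0.35 ± 0.07 (SE, limma adjusted p = 0.00776). With 0.16 ± 0.03 the amplitude was the smallest of the 5, and the peak was the earliest, at ZT20.23 ± 0.72 (SE, adjusted p = 0.0022). Without the ZT18 libraries the adjusted p was 0.0796 (limma, added after seeing the data).

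Manf (ENSMUSG00000032575, chromosome 9, minus strand) encodes a small ER-resident protein that binds BiP and is secreted as a neurotrophic factor. Its ZT10 libraries ran from 9.77 through a median of 9.97 to 10.11, and its ZT18 libraries from 10.03 through 10.33 to 10.60. Of the 10 ZT18 libraries, 9 lay above every ZT10 library. The level was low from ZT6 to ZT14, with means of 10.01 ± 0.14, 9.97 ± 0.11 and 10.03 ± 0.19, and high from ZT18 to ZT2, with 10.31 ± 0.17, 10.28 ± 0.16 and 10.31 ± 0.23 (SD, n = 10, or 9 at ZT10). Its amplitude was 0.20 ± 0.03 with a peak at ZT21.90 ± 0.64 (SE, limma adjusted p = 3.33e-04).

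Pdia6 (ENSMUSG00000020571, chromosome 12, 17266545 to 17284770, plus strand) encodes a protein disulphide isomerase that also attenuates the sensor IRE1. Its ZT10 libraries lay at 11.08, 11.28 and 11.50 (lowest, median, highest), those of ZT18 at 11.49, 11.71 and 11.85, and those of ZT22 at 11.63, 11.72 and 11.82. The 10 ZT22 libraries were tightly grouped, with an SD of 0.055, and all lay above every ZT10 library. The rise from ZT10 to ZT22 was 0.41 ± 0.08 (SE) or 1.33-fold (limma, adjusted p = 0.00156). The amplitude was 0.22 ± 0.03, with a peak at ZT22.37 ± 0.55 (SE, adjusted p = 1.17e-05). Of its exonic bases 1.34% are shared with Atp6v1c2 on the other strand.

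Calr (ENSMUSG00000003814, chromosome 8, 84841850 to 84846934, minus strand) encodes calreticulin, the calcium-binding lectin chaperone of the ER lumen. Its ZT14 libraries ran from 12.20 through a median of 12.84 to 13.25, and its ZT22 libraries from 13.03 through 13.40 to 13.87, so the groups overlapped. The lowest mean was at ZT14, with 12.81 ± 0.37, not at ZT10, where it was 13.11 ± 0.37, and the highest at ZT22, with 13.42 ± 0.25 (SD, n = 10, or 9 at ZT10). That difference of 0.61 ± 0.16 (SE) was the largest of its 15 pairs of times and had an adjusted p of 0.0724 (limma). It was called on leaving out the fourth ZT6 male or the fourth ZT6 female (limma, adjusted p down to 0.0426). The amplitude of 0.22 ± 0.07 (SE) was as large as that of Pdia6, but the residual SD after time and sex was 0.37 against 0.16 for Pdia6, and the adjusted p was 0.169 (limma). With the replicate number as a block it was 0.0432 (limma), and the factor of time had 0.0250, so that Calr was then called in both tests; it was also called with 2 components as covariates. Its unadjusted rank among the 4273 genes was 200.

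**Figure D2:**
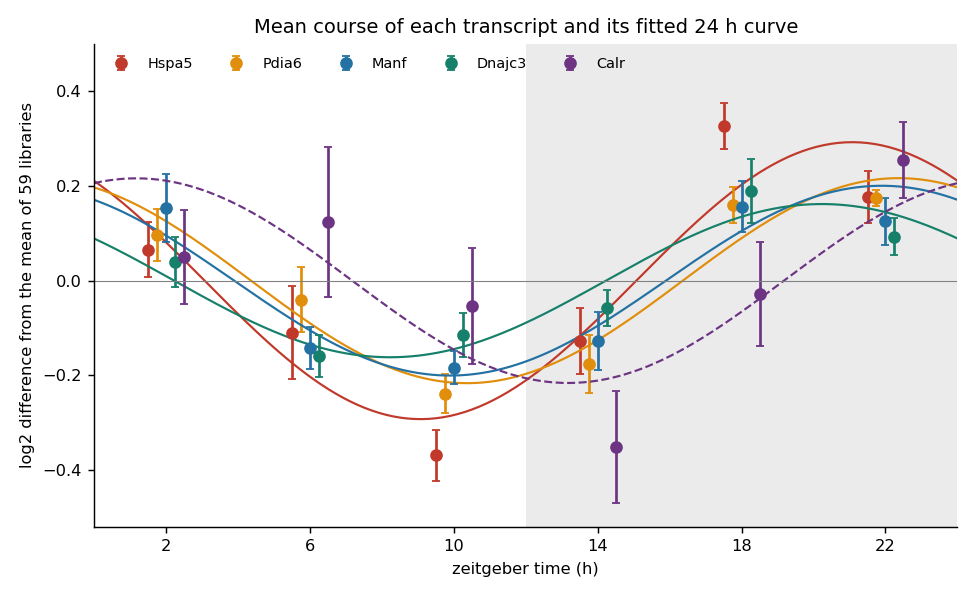
Mean of each transcript at each zeitgeber time (h), as the log2 difference from its mean over 59 libraries, with the SE of the mean; points are offset sideways for legibility. Curves are the fitted 24 h cosines, dashed for Calr, which did not pass the test; the other 4 have their fitted peaks between ZT20.2 and ZT22.4.

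With time as 6 free levels in place of a cosine, the same 4 members passed, beside 1.05% of all genes. The adjusted p (limma) was 1.25e-05 for Hspa5, 1.27e-04 for Pdia6, 0.0026 for Manf, 0.0200 for Dnajc3 and 0.271 for Calr. With animal numbers averaged that of Dnajc3 was 0.120. A 12 h component was called in no gene (0%, with 291 of 4273 at an unadjusted p under 0.05), and the 12 h amplitude of Hspa5 was 0.12 ± 0.04 (SE), with an adjusted p of 0.625.

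Between neighbouring times, members were called in 1 step, from ZT14 to ZT18, where the fitted difference was positive in all 5 transcripts. Hspa5 rose by 0.45 ± 0.10 and Pdia6 by 0.34 ± 0.07 (SE), each with an adjusted p of 0.0463 (limma). Only 3 genes of the table were called in this step, 0.0702%, and these 2 members were among them. Manf had a difference of 0.28 ± 0.08 and Dnajc3 of 0.25 ± 0.07 (both adjusted p = 0.353), and Calr of 0.32 ± 0.16 (adjusted p = 0.639). The 2 calls sat at the threshold: leaving out a single library ended that of Hspa5 in 37 of 59 cases and that of Pdia6 in 40, with adjusted p up to 0.154 and 0.214. Without numbers 49 to 60 the adjusted p was 0.0370 for Hspa5 and 0.136 for Pdia6, and with animal numbers averaged 0.245 and 0.402 (limma).

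**Figure D3:**
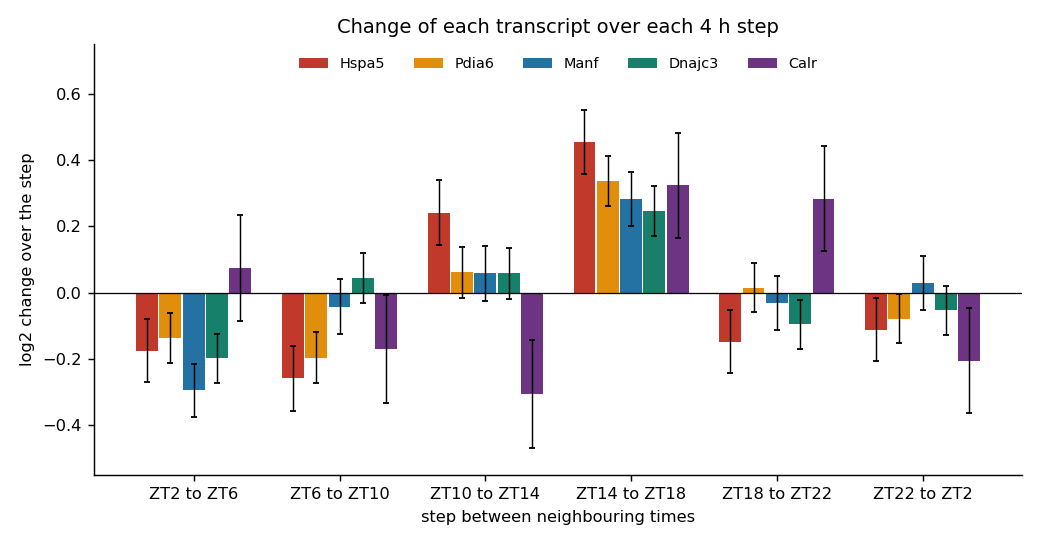
Fitted log2 change of each transcript over each 4 h step between neighbouring times, the last from ZT22 to ZT2 of the cycle. Bars are limma estimates and whiskers their SE; in the step from ZT14 to ZT18 all 5 bars are above 0, from 0.25 for Dnajc3 to 0.45 for Hspa5.

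No member was called in any other neighbouring step. The share of all genes called was 0.140% from ZT2 to ZT6, 0.0234% from ZT6 to ZT10, 0.0702% from ZT10 to ZT14, and 0% from ZT18 to ZT22 and from ZT22 to ZT2 (193 and 161 genes at an unadjusted p under 0.05). In the light phase the differences between neighbouring times were mostly negative. For Manf the step from ZT2 to ZT6 was -0.30 ± 0.08 (SE, limma adjusted p = 0.243) and that from ZT6 to ZT10 was -0.04 ± 0.08. Hspa5 had -0.18 ± 0.10 and then -0.26 ± 0.10 (adjusted p = 0.622 and 0.763). Whether these 2 genes differ in the timing of these steps was not tested.

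Across wider intervals the calls were more numerous. From ZT10 to ZT18, 4 members rose (0.772% of all genes changed, 0.538% upwards): beside Hspa5 these were Pdia6 by 0.40 ± 0.08, Manf by 0.34 ± 0.08 and Dnajc3 by 0.30 ± 0.08 (SE, limma adjusted p = 0.00254, 0.0350 and 0.0418). Calr had a difference of 0.02 ± 0.16, with a 95% interval from -0.30 to 0.34. The call of Manf ended on leaving out any of 10 of the 59 libraries and that of Dnajc3 on leaving out any of 11, with adjusted p up to 0.0724 and 0.102. With animal numbers averaged these 2 had 0.0691 and 0.125, while Hspa5 and Pdia6 were called, Pdia6 at 0.0496. From ZT6 to ZT18, Hspa5 rose by 0.44 ± 0.10 (SE, adjusted p = 0.0101) along with Dnajc3, beside 0.749% of genes. From ZT10 to ZT22, Hspa5 rose by 0.55 ± 0.10 (adjusted p = 0.00102) along with Pdia6, beside 0.234%. Pdia6 also rose from ZT14 to ZT22, by 0.35 ± 0.07 (adjusted p = 0.0244, 0.211% of genes). This call ended on leaving out the fourth ZT14 male or the fourth ZT22 female (adjusted p up to 0.0678), without numbers 49 to 60 (0.0868) and with animal numbers averaged (0.140). From ZT2 to ZT10, Hspa5 fell by 0.43 and Pdia6 by 0.33 (adjusted p = 0.0468 and 0.0493, 0.117% of genes); these calls ended in 31 and 45 of the 59 removals of a single library, with adjusted p up to 0.120 and 0.126, as they did without numbers 49 to 60 (0.178 for each) and with animal numbers averaged (0.522 for each). No member was called in the other 4 wider pairs, from ZT2 to ZT14 (0.398%), ZT2 to ZT18 (0.117%), ZT6 to ZT14 (0.421%) or ZT6 to ZT22 (0.117%).

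Both sexes showed the daily course of Hspa5. In males its amplitude was 0.31 ± 0.06 with a peak at ZT22.44 ± 0.74, and in females 0.31 ± 0.05 with a peak at ZT19.69 ± 0.64 (SE, limma adjusted p = 0.0342 and 0.00518). In males Pdia6 passed as well, with 0.26 ± 0.04 (adjusted p = 0.00808), so 2 members were called beside 0.164% of genes, and in females 1, beside 0.328%. Manf in males had 0.23 ± 0.05 and an adjusted p of 0.0652, and Dnajc3 in females 0.18 ± 0.04 and 0.203. The male call of Hspa5 ended in 13 of 59 removals of a single library (adjusted p at most 0.0771). With numbers 49 to 60 left out, no member was called in either sex alone (adjusted p of 0.338 and 0.136 for Hspa5 and Pdia6 in males and 0.0656 for Hspa5 in females), nor with animal numbers averaged (0.241, 0.220 and 0.0987).

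The sexes stood furthest apart for Hspa5 at ZT14. The 5 female libraries were at 12.51, 12.61, 12.63, 12.78 and 12.91, and the 5 male libraries at 12.19, 12.27, 12.41, 12.42 and 12.48. Every female thus lay above every male, and the male mean of 12.35 ± 0.12 was near that of ZT10 males, 12.27 ± 0.19 (SD, n = 5), while the female mean was 12.69 ± 0.16. This gene and time were picked for the gap, and the sexes were not tested at ZT14 alone. How many of all genes separate the sexes in this way was not counted, and libraries of a group may share an animal. The test of a different rhythm in the 2 sexes called no gene (0%, 180 genes at an unadjusted p under 0.05), and for Hspa5 gave an adjusted p of 0.741 (limma). Averaged over the day, male minus female was -0.03 ± 0.06 for Hspa5 and -0.12 ± 0.09 for Calr (SE), and no member was called (0.0234% of genes).

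Of the 5 members, 4 scattered less than the median gene. The median amplitude was 0.0762 over the 4273 genes and 0.217 over the 81 called, and that of the 5 members 0.216. The residual SD, after time and sex as added terms, was 0.21 for Hspa5, 0.17 for Manf, 0.16 for Dnajc3 and 0.16 for Pdia6, and 0.37 for Calr. The median over all genes was 0.35, taken around the means of the 12 groups and so from another model. Genes of like expression level were not compared. By amplitude alone Hspa5 ranked 221 and Dnajc3 719, while by p they ranked 6 and 25.

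**Figure D4:**
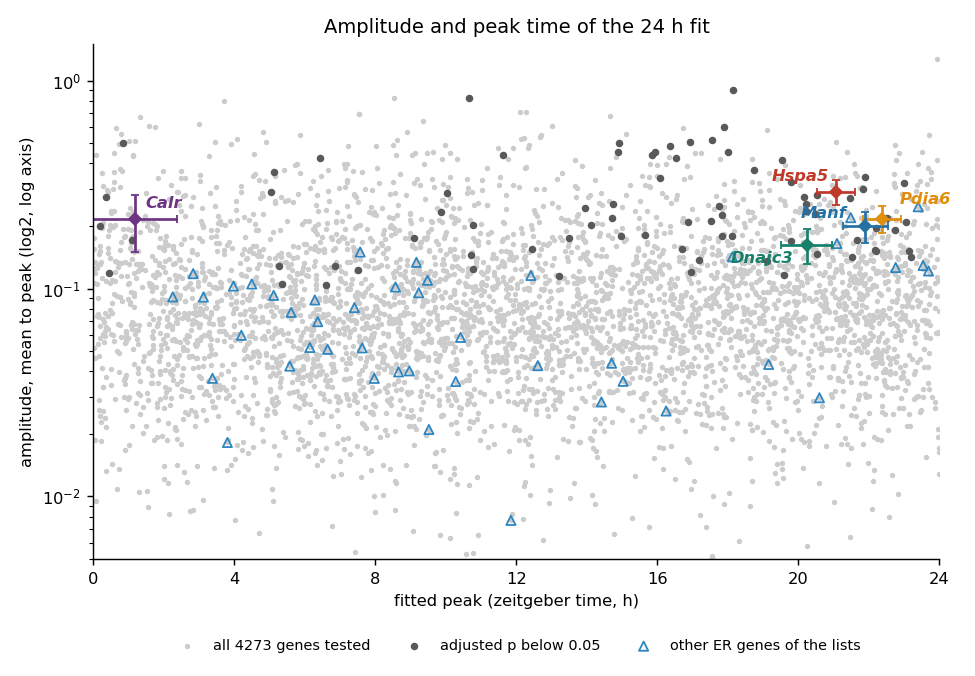
Fitted amplitude (log2, mean to peak, on a log axis) against fitted peak time (h) for the 4273 tested genes in grey, those with an adjusted p below 0.05 in dark grey, and other ER genes as open triangles; genes with amplitudes under 0.005 lie off the axis. Diamonds with SE bars are the members, 4 of them between ZT20.2 and ZT22.4.

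Of 168 genes in 8 further ER lists, 44 were among the genes of the deposited table. The others are absent from it and could not be examined, among them all but 3 of the 19 further ER chaperones listed. The 44 were all tested and none was called, beside 1.90% of all tested genes. At an unadjusted p under 0.05 there were 8 of the 44 (18.2%), beside 486 of the 4273 genes (11.4%), and their median amplitude was 0.0730. The gene nearest to the threshold was Pdia3, the disulphide isomerase that works with calreticulin, with 0.12 ± 0.03 and a peak at ZT23.69 (SE, limma adjusted p = 0.0684). Of the 7 isomerases tested, Txndc12 had 0.12 with a peak at ZT2.83 (adjusted p = 0.229) and Txndc5 0.11 with a peak at ZT9.48 (adjusted p = 0.360). Serpinh1, the collagen chaperone and 1 of 3 further ER chaperones tested, had 0.22 with a peak at ZT21.48 (adjusted p = 0.229).

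Among 7 sensors and factors of the unfolded protein response, Xbp1, the transcription factor spliced by IRE1, had 0.16 ± 0.06 and a peak at ZT21.09 (SE, limma adjusted p = 0.261). Mbtps2, the protease that releases ATF6, had 0.13 with a peak at ZT9.16 (adjusted p = 0.259). The gene counts cannot show splicing of Xbp1 or cleavage of ATF6. Tmed10, a cargo receptor of the early secretory pathway, was the nearest of 8 export genes, with 0.093 and a peak at ZT5.11 (adjusted p = 0.0835), and Calu, a calcium-binding ER protein, that of 3 calcium store genes, with 0.091 at ZT2.25 (adjusted p = 0.259). None of 6 degradation, 5 translocon and 5 glycosylation genes reached an unadjusted p under 0.05. That the members differ from these genes was not tested, and the members were proposed with results of these data known.

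Outside the ER, 1 of 6 cytosolic heat shock chaperones was called, Dnajb1, a co-chaperone of Hsp70, with 0.14 ± 0.03 and a peak at ZT19.11 (SE, limma adjusted p = 0.0393). Of 19 cell type markers tested none was called, the lowest adjusted p being 0.0961 for Fgfr3, an astrocyte gene, with 0.24 and a peak at ZT19.91. In a homogenate, fewer cells of a type and less RNA per cell cannot be told apart, and no member could be assigned to a cell type.

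The courses of Hspa5, Pdia6, Manf and Dnajc3 were each closer to the mean of the other members than that of Calr. Over the 12 group means, the Pearson correlation of each member with the mean of the other 4 was 0.975 for Pdia6, 0.901 for Hspa5, 0.824 for Manf, 0.792 for Dnajc3 and 0.396 for Calr, as a description over groups that share libraries and scaling. Of the tested non-members, 100%, 99.95%, 99.6%, 99.3% and 86.6% had a lower correlation with the same mean, in that order. The mean of the other 4 held Calr for every member but Calr. The 4 closer members are those called for the rhythm in these same values. The non-members most like the mean of the 5, of 3904 genes, were Gfod1 (0.900), Fndc3a (0.898), Rbbp5 (0.894), Traf3 (0.881) and Htr1b (0.880). They were followed by Mettl16 (0.878), Srek1 (0.876), Sox11 (0.868), Rilpl1 (0.865) and Tgfb3 (0.861). Htr1b encodes a serotonin receptor, Rbbp5 a subunit of histone methyltransferase complexes and Sox11 a transcription factor, and none of the 10 is an ER chaperone. Of the 10, 5 were also among the first 10 by Spearman correlation and 6 by Pearson correlation over the 59 libraries.

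Hspa5 on its own was nearest to Fgfr1op2 (0.936), Pdia6 (0.932) and Rilpl1 (0.915), and Pdia6 to Hspa5, Htr1b (0.915) and Rbbp5 (0.896). Manf was nearest to Homer1 (0.941), the activity-regulated postsynaptic scaffold gene, then to Rasl10a (0.912) and Znrf1 (0.900). Dnajc3 was nearest to Trove2 (0.920), Gfod1 (0.908) and Colgalt1 (0.901). Calr was nearest to Dbpht2 (0.922), Vps9d1 (0.916) and Atat1 (0.911), none of which shared a place with the lists of the other members.

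Within groups, libraries with more Hspa5 also had more Pdia6, Calr and Dnajc3. After the group mean was removed, Hspa5 and Calr had Pearson's r = 0.61 and Spearman's rho = 0.55 over 59 libraries (two-sided permutation within groups, adjusted p = 0.0001 over the 10 pairs for r and 0.0005 for rho). Hspa5 and Pdia6 had r = 0.59 and rho = 0.53 (permutation, adjusted p = 0.00025 and 0.0006), and Pdia6 and Calr r = 0.56 and rho = 0.48 (permutation, adjusted p = 0.000867 and 0.003). Hspa5 and Dnajc3 had r = 0.45 and rho = 0.45 (permutation, adjusted p = 0.0027 and 0.003). Pdia6 and Manf had r = 0.31 with an adjusted p of 0.0757, and rho = 0.36 with 0.0295 (permutation). In all pairs single libraries were permuted, and the correlations were not recomputed with animal numbers averaged, so these p-values may be too small. Of all tested genes, 99.04% had a lower r with Hspa5 than Calr, 97.9% than Pdia6 and 86.8% than Dnajc3, and 99.8% had a lower r with Pdia6 than Calr. The other 5 pairs had r between -0.17 and 0.13, so Manf, which shared the daily course, shared little of the scatter with Hspa5 (r = 0.04, and 0.15 among numbers 1 to 48). Of these pairs, Pdia6 and Dnajc3 had r = 0.04 among numbers 1 to 48 and 0.81 among numbers 49 to 60.

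The relations were recomputed without 2 libraries and within serial numbers 1 to 48 and 49 to 60. The fourth male of ZT6 had the lowest Hspa5 of all, 11.95, with Calr at 12.23, Pdia6 at 11.17 and Manf at 10.12. Without the 2 libraries furthest from the median of the first-named gene, r was 0.49 for Hspa5 and Calr, 0.48 for Hspa5 and Pdia6, 0.47 for Pdia6 and Calr and 0.42 for Hspa5 and Dnajc3. Among the libraries numbered 1 to 48, r was 0.66 for Hspa5 and Calr, 0.60 for Hspa5 and Pdia6, 0.71 for Pdia6 and Calr and 0.42 for Hspa5 and Dnajc3. Among the 11 numbered 49 to 60 it was -0.09, 0.84, 0.0027 and 0.73. The relations of Calr were thus not seen there, but 11 libraries are few. Whether r differs between the 2 sets of libraries was not tested.

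**Figure D5:**
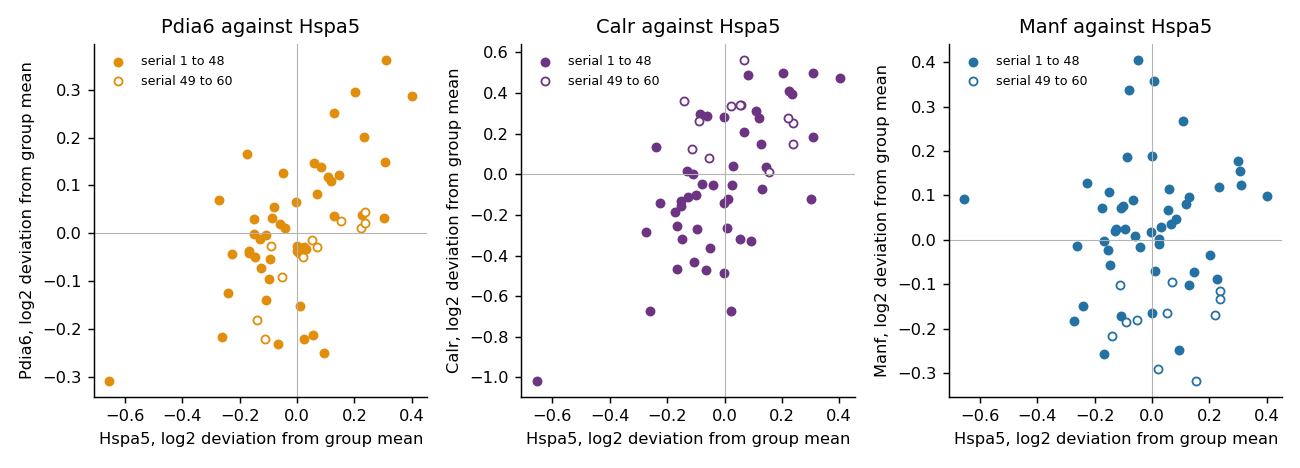
Deviation of each library from the mean of its time and sex (log2), for Pdia6, Calr and Manf against Hspa5; filled circles are serial numbers 1 to 48 and open circles 49 to 60. Open circles of Calr lie above 0 and those of Manf below it, and the point furthest left is the fourth male of ZT6.

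The late serial numbers shifted 2 members in opposite directions. Compared with the mean of the same group in numbers 1 to 48, Calr was higher in 11 of 11 late libraries, by 0.31 ± 0.19, and Manf lower in 11 of 11, by -0.22 ± 0.09 (SD, n = 11). The differences were 0.07 ± 0.18 for Hspa5, -0.06 ± 0.11 for Pdia6 and -0.02 ± 0.19 for Dnajc3. These libraries hold both sexes and all 6 times, and without them the same 4 members passed the 24 h test, with adjusted p of 6.3e-04 for Hspa5, 7.0e-04 for Pdia6, 5.3e-04 for Manf and 0.0063 for Dnajc3 (limma), and 0.310 for Calr. With animal numbers averaged the same 4 passed as well, with 3.37e-04, 0.00178, 0.00784 and 0.0191 (limma), and 0.137 for Calr.

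The noncoding share of a library moved with 3 members and with most genes. Per 10 percentage points, Hspa5 had a slope of -0.11 ± 0.04, Dnajc3 of -0.07 ± 0.03 and Manf of 0.10 ± 0.03 (SE, limma adjusted p = 0.0229, 0.0495 and 0.0092), beside 57.5% of all genes. Pdia6 had 0.04 ± 0.03 and Calr -0.06 ± 0.07. With this share in the model the same 4 members were called, and the amplitude of Hspa5 was 0.29.

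The calls depended on the scaling. When reads were scaled to the table total, which the noncoding genes dominate, the median gene itself shifted by 0.19 from ZT10 to ZT18, and no member passed (3 genes called in all). The amplitudes were then 0.32 for Hspa5, 0.25 for Pdia6, 0.23 for Manf, 0.19 for Dnajc3 and 0.25 for Calr. Relative to the median gene the rise from ZT10 to ZT18 was 0.70 for Hspa5 under both scalings.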

How the data were processed

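RNA of 59 libraries was made with a stranded total RNA kit, per the labels' protocols. The submitters' processing notes name FastQC, HTSeq, DESeq2 and GRCm38; aligner, annotation, strand setting and versions are not given in the sources used here. What the authors deposited is, judged from the numbers, the log2 of each gene's scaled count plus 1: in every library 2 to the value, less 1, was a whole multiple of 1 step for 100% of values within 0.05 reads. No column lacked a sample. Groups came from the titles, and replicate numbers from runs of 12 serial numbers; no 2 libraries of a group were duplicates (chi-square per degree of freedom at least 10.6 over 116 pairs).

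Genes with at least 10 reads in at least 4 libraries were tested on the log2 values with limma 3.58.1 (R 4.3.3; intensity trend, robust), with sex as a covariate and Benjamini-Hochberg adjustment over all 4273 genes at 0.05. The amplitude is mean to peak. The fit was tested on simulated data. Gene coordinates are from GENCODE M21 (GRCm38). Genes were named by rule: the members, up to 4 genes per list, and the closest patterns by Pearson correlation. Members and lists were chosen with earlier results of these data known.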

Additional observations from a re-analysis of the deposited data

Results flagged for a closer look

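In 60 groups of one gene, time and sex, each with 4 or 5 libraries, 3 held a library far from the others of its group by Dixon's criterion, and chance alone flags about 1 in 20, or 3 of 60. In ZT6 males, Calr was at 12.23 in the fourth replicate, with the nearest library at 13.33. In ZT22 females, Dnajc3 was at 10.49 in the fifth replicate, with the nearest at 10.39. In ZT2 males, Manf was at 10.71 in the third replicate, with the nearest at 10.33. Leaving out any of these libraries changed no call of the 24 h test among the 5 members. Calls between times did change. Without the fourth ZT6 male, Calr was called from ZT6 to ZT14 (limma, adjusted p = 0.0456) and from ZT14 to ZT22. Without the third ZT2 male, Manf was called from ZT6 to ZT18.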

How the results depend on the processing

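The count of members called for the 24 h rhythm (4) was 4 under quantile normalization, no filter, an offset of 10, voom, no trend and robust fit, the noncoding share as a covariate, without numbers 49 to 60 and without the ZT10 libraries, 3 without the ZT18 libraries, and 4 in each removal of a single library. No result reversed. Counts below are members called.

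Scaled by table totals, 0 were called for the 24 h rhythm, for time as a factor, in males, in females and in each pair of times called as reported (3 genes called for the rhythm, against 81). Quantile normalization gave 2 from ZT10 to ZT18 and 1 from ZT14 to ZT18. Without trend and robust fit there was 1 in males, 0 from ZT2 to ZT10 and 0 from ZT14 to ZT18. The offset of 10 and voom each gave 1 from ZT2 to ZT10. Without numbers 49 to 60 there were 0 in males, in females, from ZT2 to ZT10 and from ZT14 to ZT22, and 1 from ZT14 to ZT18 (52 genes called for the rhythm). With the libraries of one animal number averaged, added after seeing the data, there were 4 for the rhythm (65 genes), 3 for time as a factor, 2 from ZT10 to ZT18, and 0 in males, in females, from ZT2 to ZT10, ZT14 to ZT18 and ZT14 to ZT22.

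Replicate numbers paired the libraries only in part. Same-numbered libraries correlated over 0.1 in 148 of 319 pairs (mean 0.107). Libraries of different number and group did so in 310 of 1276 pairs (mean -0.026). Of the 59 libraries, 26 correlated best with their own number. The pairs of numbers 1 to 4 had mean correlations of 0.02 to 0.07, while those of number 5, the libraries numbered 49 to 60, exceeded 0.1 in 55 of 55 pairs (mean 0.41). With the replicate block, 5 were called for the rhythm (Calr adjusted p = 0.0432 by limma), 2 from ZT2 to ZT14, 1 from ZT6 to ZT14 and 2 from ZT14 to ZT22.

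With 2 components of the residuals as covariates, which by construction shrink the spread and leave the effects as they are, 5 were called for the rhythm (359 genes), in males, in females and from ZT14 to ZT18. There were 4 from ZT6 to ZT22, ZT10 to ZT22 and ZT14 to ZT22, 3 from ZT2 to ZT14, and 2 for the 12 h terms, ZT2 to ZT6 and ZT6 to ZT10. There was 1 for the rhythm by sex, ZT2 to ZT18, ZT6 to ZT14, ZT10 to ZT14 and ZT18 to ZT22. With 2 components of the values themselves, added after seeing the data, 5 were called for the rhythm (499 genes) and in females, 4 in males, ZT6 to ZT18 and ZT10 to ZT22, 3 from ZT2 to ZT14 and ZT14 to ZT22, 2 from ZT6 to ZT22 and 1 from ZT6 to ZT14. The causes of the other changes were not tested.

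Leaving out 1 library gave 1 to 3 in males, 2 to 4 from ZT10 to ZT18, 2 to 3 from ZT10 to ZT22 and from ZT6 to ZT18, 0 to 2 from ZT14 to ZT18 and from ZT14 to ZT22, 0 to 3 from ZT2 to ZT10, and 0 to 1 from ZT2 to ZT14 and from ZT6 to ZT14. Each member had at least 174 reads in every library.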
